A study of Mus musculus with 16 samples.

Results

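Expression of 10 genes of transforming growth factor-beta (TGF-beta) signaling was followed in primary mouse mammary fibroblasts: the ligand genes TGFB1, TGFB2, TGFB3 and INHBA, the receptor genes TGFBR1, TGFBR2 and TGFBR3, and the matricellular genes CTGF, CYR61 and THBS1. They were taken by their symbols, and all 10 were present among the 18132 genes measured on each array. The fibroblasts came from the inguinal mammary glands of female mice of strain 129S6, aged 8 to 10 weeks, that were MEKK1+/+ (wild type) or MEKK1-/- (lacking the kinase MEKK1, which the gene Map3k1 encodes). Cells of each genotype were kept for 8 h either in growth medium, the untreated control, or in conditioned medium (CM), which is that medium harvested from cultures of MDA-MB-231, a human breast tumor cell line. With 4 arrays for each combination of genotype and medium there were 16 arrays. The arrays compare how the gene expression of the fibroblasts responded to the soluble products of tumor cells and whether that response differed without MEKK1. Per the study's methods, the cultures derived from 3 mice of each genotype, so some of the 4 replicates of a group came from the same mouse, and p-values here measure the spread between cultures. Those methods separated fibroblasts from epithelial cells by letting the digested tissue settle, with no sort of the cells, and the sources used here do not name the allele that removed MEKK1.

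TGF-beta proteins are secreted in a latent form and, once released, bind the receptor kinase TGFBR2, which recruits and phosphorylates TGFBR1. TGFBR1 then phosphorylates SMAD2 and SMAD3, which carry the signal to the nucleus, while TGFBR3 (betaglycan) is a co-receptor that presents ligand, TGF-beta 2 above all. In fibroblasts the pathway is best known for inducing extracellular matrix and the contractile myofibroblast state. CTGF and CYR61 are secreted proteins of the CCN family, and both are also classical targets of the factors YAP/TEAD and SRF.

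Values are log2 intensities after quantile normalization of the deposited intensities, and a difference of 1 is a doubling. An intensity compares 1 gene between arrays, so levels were not compared between genes, apart from the place of CTGF within the range of each array. All 10 genes lay above the level of olfactory receptor genes, which fibroblasts should not express (the 99th percentile of 1075 such genes, 7.20 to 7.34 on the log2 scale), on all 16 arrays. Of 10 fibroblast markers, at least 9 passed that level on every array of each group. MAP3K1, the gene labelled as missing, was not lower in MEKK1-/- cells: its log2 level was 7.51 to 7.95 in untreated MEKK1+/+ cells and 8.06 to 8.41 in untreated MEKK1-/- cells (limma adjusted p = 0.466), so these values did not check the genotype labels. Where the probe lies relative to the deleted part was not known.

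Several arrays stood apart by markers of other cells. Both MEKK1-/- arrays numbered 1 carried high levels of epithelial genes: the summed level of 7 epithelial markers was 13.45 untreated and 13.29 with CM, against 9.89 to 10.65 on the other 14 arrays. On these arrays 6 of the 7 markers passed the olfactory level, and KRT8 (11.82 and 11.61) and KRT14 (11.90 and 11.49), keratins of luminal and basal epithelium, were far above the other arrays. MEKK1-/- replicates 3 and 4 carried a weaker epithelial signal, with 5 of the 7 markers above the olfactory level untreated and 4 and 5 with CM, against 2 or 3 on MEKK1+/+ arrays and 1 or 2 on MEKK1-/- replicate 2. Untreated, KRT8 was 8.62 and 8.52 and KRT14 7.95 and 7.78 on replicates 3 and 4, and these arrays stayed in when those numbered 1 were left out. The summed level of 12 macrophage markers was 14.23 to 15.10 on MEKK1+/+ arrays and 11.96 to 13.32 on MEKK1-/- arrays, except that the MEKK1+/+ arrays numbered 2 read 13.19 and 13.05 and the MEKK1-/- arrays numbered 2 read 14.48 and 14.25. Values without the arrays numbered 1 or 2 are given for the named genes whose calls they changed. In mixed cultures, fewer cells of a type and less RNA per cell cannot be told apart.

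After 8 h of CM the transcript of the receptor TGFBR2 fell in both genotypes, by 1.43-fold in MEKK1+/+ and by 1.39-fold in MEKK1-/- cells. None of the other 9 genes passed the limma test (adjusted p under 0.05 over all 18132 genes) in either genotype. The largest of their differences, in MEKK1-/- cells, were lower TGFB3 and CYR61 and higher TGFB1 and TGFBR3. In an alternative fit that took equal replicate numbers as pairs, TGFB1, TGFBR3 and CYR61 passed the test beside TGFBR2 in MEKK1-/- cells. That made 4 of the 10, beside 7.93% of all genes. The labels give numbers only, and in their deviations from group means untreated replicates 3 and 4 correlated best with CM arrays of other numbers. In the main fit 1 of the 10 genes was called with CM in each genotype, beside 5.01% of all genes in MEKK1+/+ and 4.69% in MEKK1-/- cells. Of all genes 8251 passed the olfactory level on no array, whereas the 10 passed it on every array. Among the 8094 genes above that level on every array of at least 1 group, 1041 and 982 were called, and 1 and 2 of the 10. The median log2 difference of the 10 genes was -0.13 in MEKK1+/+ and -0.33 in MEKK1-/- cells. Over all genes, those 8251 included, it was -0.0018 and -0.0042.

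**Figure D1:**
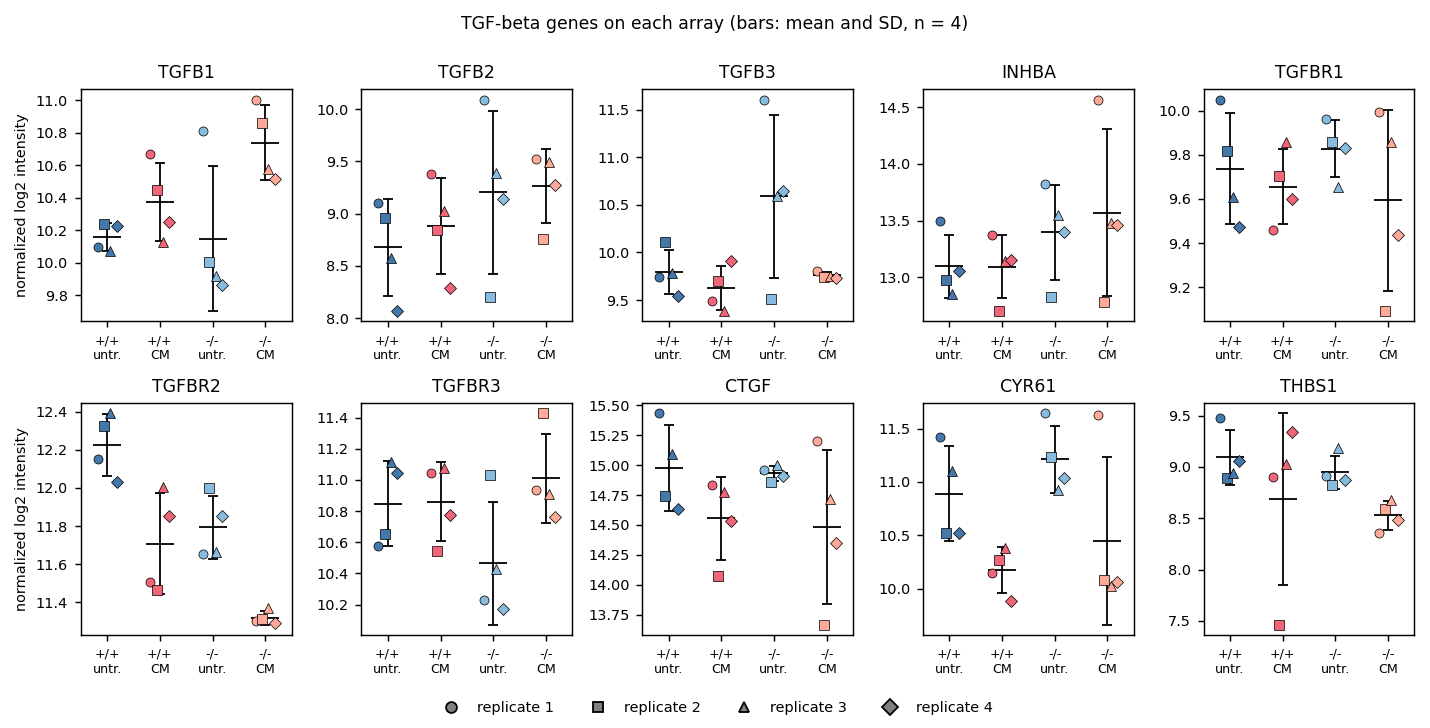
Normalized log2 intensity of each of the 10 TGF-beta genes (vertical axes, 1 panel per gene, each with its own range) on each of the 16 arrays, by group, with bars for the mean and SD of the 4 arrays. TGFBR2 steps down with CM in both genotypes without overlap of the arrays, while the MEKK1-/- arrays numbered 1 lie apart for TGFB1 untreated (10.81) and CYR61 with CM (11.62).

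TGFBR2, the receptor kinase that binds TGF-beta first, is encoded on mouse chromosome 9. The 250 bases before its start site are shown because this was the one gene of the 10 that the test called. They stand in the RefSeq table for GRCm38.p6 at chr9:116175364-116175613, minus strand, written 5′ to 3′ with CCAAT boxes in capitals.

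Tgfbr2 promoter: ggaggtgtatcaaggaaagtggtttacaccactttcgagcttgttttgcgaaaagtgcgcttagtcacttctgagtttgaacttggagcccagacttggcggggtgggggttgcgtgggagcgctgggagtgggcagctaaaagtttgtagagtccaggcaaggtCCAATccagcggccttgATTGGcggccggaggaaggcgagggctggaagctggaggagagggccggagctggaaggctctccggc

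Counted from the start site, the CCAAT boxes stood at bases -85 to -81 and, on the opposite strand, at -68 to -64. CCAAT in either orientation was found in 34.5% of the 27025 RefSeq promoters of this length. Also searched, on both strands, were the AP-1 site TGANTCA (6.87% of promoters), the TEAD motif GGAATG, the SMAD element spelled CAGACA (17.1%), the TATA box written TATAAA and the CArG box of SRF. These letters did not occur in this window.

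In untreated MEKK1+/+ cells the log2 level of TGFBR2 was 12.15, 12.32, 12.39 and 12.03 on replicates 1 to 4, and with CM it was 11.51, 11.47, 12.01 and 11.85. In untreated MEKK1-/- cells it was 11.65, 12.00, 11.66 and 11.85, and with CM 11.30, 11.31, 11.37 and 11.29. Every array with CM was below every untreated array of its genotype, and the 4 MEKK1-/- arrays with CM were the lowest of the 16. The group means ran from 12.22 ± 0.16 (SD, n = 4) in untreated MEKK1+/+ cells through 11.79 ± 0.17 in untreated MEKK1-/- cells and 11.71 ± 0.26 in MEKK1+/+ cells with CM to 11.32 ± 0.04 in MEKK1-/- cells with CM. In that order only the middle pair of groups overlapped. The decrease with CM was -0.52 (SE 0.12, limma adjusted p = 0.0189) in MEKK1+/+ and -0.47 (SE 0.12, adjusted p = 0.0315) in MEKK1-/- cells. A 2-sided exact permutation test of 4 arrays against 4 gave p = 0.0286 for each decrease, the smallest it can give. In MEKK1+/+ cells the groups did not overlap for 2 of the 10 genes, TGFBR2 and CYR61, beside 9.7% of all genes, and in MEKK1-/- cells for TGFBR2 and THBS1, beside 10.4%.

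The direction of the TGFBR2 decrease was the same under every alternative tried, but its call was not. With all 4 arrays numbered 2 left out the difference was -0.40 (adjusted p = 0.139) in MEKK1+/+ and -0.41 (adjusted p = 0.115) in MEKK1-/- cells, and with the MEKK1-/- arrays numbered 1 left out it was -0.51 (adjusted p = 0.0595) in MEKK1-/- cells. In MEKK1+/+ cells single arrays decided the call: the adjusted p was 0.0622 and 0.0680 without untreated replicate 2 or 3 and 0.0546 and 0.0549 without CM replicate 1 or 2. In MEKK1-/- cells it lay between 0.0523 and 0.0909 without untreated replicate 2 or 4 or any one of the 4 arrays with CM. Without further normalization the MEKK1-/- decrease was -0.56 (adjusted p = 0.819), and with only the 2 groups compared in the fit the MEKK1+/+ decrease was -0.52 (adjusted p = 0.0871).

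TGFBR1, the kinase that TGFBR2 activates, showed no difference that passed the test. Its 16 arrays spanned 9.09 to 10.05, and CM changed the mean by -0.081 (SE 0.17, limma adjusted p = 0.900) in MEKK1+/+ and by -0.23 (SE 0.17, adjusted p = 0.593) in MEKK1-/- cells. The arrays of its 4 groups overlapped throughout.

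TGFBR3, the co-receptor, was also near its untreated level in MEKK1+/+ cells, at 10.85 ± 0.27 untreated and 10.86 ± 0.25 with CM (SD, n = 4). In MEKK1-/- cells it read 10.23, 11.03, 10.43 and 10.17 on untreated replicates 1 to 4 and 10.94, 11.43, 10.91 and 10.76 with CM. Each culture with CM was above the untreated culture of the same number, although the groups overlapped because untreated replicate 2 was high. The difference of 0.55 (SE 0.20) did not pass limma's test (adjusted p = 0.151). With the replicate number as a block within each genotype the same difference had SE 0.11 and passed (adjusted p = 0.0121). Without untreated MEKK1-/- replicate 2 it was 0.73 (adjusted p = 0.0293), and without all arrays numbered 2, whose macrophage markers went against their genotype, 0.59 (adjusted p = 0.0386; 2 of the 10 genes called, beside 3.61% of all). The part of the macrophage signal in this result was not tested.

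TGFB1, the ligand isoform most widely made by stromal and immune cells, had its larger difference with CM in MEKK1-/- cells. There it read 10.81, 10.00, 9.92 and 9.86 on untreated replicates 1 to 4 and 11.00, 10.86, 10.58 and 10.51 with CM. The untreated replicate 1, one of the arrays with high epithelial markers, sat within the range of the treated arrays, and the other 3 untreated arrays lay below all 4 of them. The difference was 0.59 (SE 0.18, limma adjusted p = 0.0846; exact permutation p = 0.0857). With the replicate block within genotype TGFB1 rose (0.59, SE 0.11, adjusted p = 0.0117). It also passed without both MEKK1-/- arrays numbered 1 (0.72, adjusted p = 0.00551) and without the untreated one alone (0.81, adjusted p = 0.00313). In MEKK1+/+ cells TGFB1 was 10.16 ± 0.09 untreated and 10.37 ± 0.24 with CM (difference 0.22, SE 0.18, adjusted p = 0.656), and with the values as deposited, where the median of all genes moved by -0.28 in this comparison, the difference was -0.19.

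TGFB3, an isoform known from palate and mammary development, behaved differently on the untreated MEKK1-/- arrays. It read 11.61, 9.51, 10.59 and 10.65 on untreated MEKK1-/- replicates 1 to 4 and then 9.81, 9.75, 9.75 and 9.73 with CM. Thus 3 of the 4 untreated arrays were above all others, and with CM the 4 arrays had an SD of 0.03. In MEKK1+/+ cells the levels were 9.74, 10.11, 9.78 and 9.55 untreated and 9.49, 9.70, 9.39 and 9.91 with CM, which overlapped. The CM difference in MEKK1-/- cells was -0.83 (SE 0.29, limma adjusted p = 0.139), and it was -0.83 (adjusted p = 0.0797) with the block within genotype. It rested on individual arrays: -0.51 (adjusted p = 0.336) without the MEKK1-/- arrays numbered 1, -1.19 (adjusted p = 0.00478) without untreated MEKK1-/- replicate 2, and -1.18 (adjusted p = 0.0160) without all arrays numbered 2. On the 4 untreated MEKK1-/- arrays TGFB3 followed the order of the summed epithelial markers, 13.45, 10.08, 10.65 and 10.61, apart from replicates 3 and 4, which lay close together in both. With CM the summed markers of MEKK1-/- replicates 1 to 4 were spread as widely, at 13.29, 10.01, 10.26 and 10.36. TGFB3 was nearly level on those 4 arrays, at 9.73 to 9.81. The part of these markers in the TGFB3 values was not tested.

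TGFB2 and INHBA varied more between cultures than between media. TGFB2 spanned 8.07 to 10.09, and CM changed it by 0.21 (SE 0.34, limma adjusted p = 0.862) in MEKK1+/+ and by 0.058 (SE 0.34, adjusted p = 0.972) in MEKK1-/- cells. INHBA, which encodes the subunit of activin A, a ligand that signals through the same SMADs by its own receptors, differed by -0.005 (SE 0.30, adjusted p = 0.998) in MEKK1+/+ and by 0.17 (SE 0.30, adjusted p = 0.878) in MEKK1-/- cells. In MEKK1-/- cells both genes were highest on replicate 1 and lowest on replicate 2 with each medium, with INHBA at 13.82 and 14.57 on replicate 1 and 12.83 and 12.78 on replicate 2. For TGFB2 the same arrays read 10.09 and 9.52 against 8.20 and 8.76. These are the arrays with the high epithelial and the high macrophage markers, and the part of those cells was not tested.

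**Figure D2:**
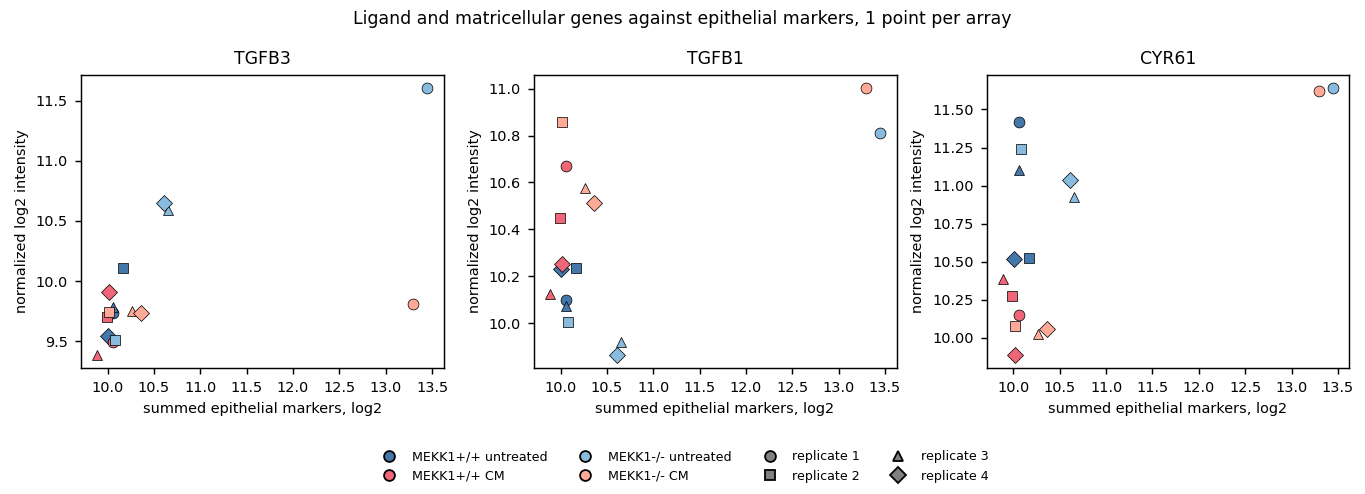
Normalized log2 intensity of TGFB3, TGFB1 and CYR61 (vertical axes, 1 panel each) against the summed log2 level of 7 epithelial markers (horizontal axes), 1 point per array, with colors for the groups and shapes for the replicates. The MEKK1-/- arrays numbered 1 stand alone on the right, at 13.45 and 13.29, and are the highest of their group in every panel, by the most for TGFB3 untreated (11.61) and CYR61 with CM (11.62).

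The matricellular genes all had lower means with CM in both genotypes, for THBS1 in MEKK1+/+ cells through 1 array, and none was called in either. CYR61, a secreted CCN protein that binds integrins, had the largest differences of the 3. The 250 bases before its start site (RefSeq name Ccn1, chr3:145649986-145650235, minus strand, GRCm38.p6) are shown because CYR61 is a textbook YAP/TEAD target, with a TEAD motif and a TATA box in capitals.

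Ccn1 promoter: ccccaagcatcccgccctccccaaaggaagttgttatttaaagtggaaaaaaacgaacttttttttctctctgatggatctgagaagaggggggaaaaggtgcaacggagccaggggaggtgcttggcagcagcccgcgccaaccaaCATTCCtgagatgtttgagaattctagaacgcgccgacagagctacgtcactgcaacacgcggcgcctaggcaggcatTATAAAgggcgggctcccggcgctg

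The TEAD letters GGAATG, on the opposite strand here, lay at bases -103 to -98 and occurred in 12.6% of the 27025 promoters, and TATAAA lay at -25 to -20 and occurred in 13.0%. The AP-1, SMAD, CCAAT and CArG letters were not in this window. Of the other genes of the 10, the table held a promoter for TGFB1, TGFB2, INHBA and TGFBR1 as well.

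In MEKK1+/+ cells CYR61 read 11.42, 10.52, 11.10 and 10.52 on untreated replicates 1 to 4 and 10.15, 10.27, 10.39 and 9.89 with CM. The groups did not overlap (exact permutation p = 0.0286), while the difference of -0.72 (SE 0.31) did not pass limma's test over all genes (adjusted p = 0.250). In MEKK1-/- cells CYR61 read 11.64, 11.24, 10.93 and 11.04 untreated and 11.62, 10.08, 10.03 and 10.06 with CM. Thus 3 of the 4 arrays with CM lay below all untreated arrays, and replicate 1, with high epithelial markers, hardly differed between the media. The difference was -0.76 (SE 0.31, adjusted p = 0.219; exact permutation p = 0.114). CYR61 fell in MEKK1-/- cells with the replicate block within genotype (-0.76, SE 0.19, adjusted p = 0.0326) and without the MEKK1-/- arrays numbered 1 (-1.01, adjusted p = 0.0127; 2 of the 10 genes called, beside 4.24% of all). Without the MEKK1-/- array numbered 1 with CM alone it was -1.16 (adjusted p = 0.00539), and since the fit shares its spread, the MEKK1+/+ difference of -0.72 then passed as well (adjusted p = 0.0485). In MEKK1+/+ cells the block gave an adjusted p of 0.0428 (2 of the 10 genes called, beside 8.17% of all). Equal numbers were not shown to be pairs there, with a correlation of -0.038 between the arrays numbered 1.

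CTGF, the CCN protein most closely tied to fibrosis, was lower by 0.42 in its log2 mean in MEKK1+/+ cells with CM (14.97 ± 0.36 against 14.55 ± 0.34, SD, n = 4) and by 0.45 in MEKK1-/- cells (14.93 ± 0.06 against 14.48 ± 0.65). Neither difference passed limma's test (SE 0.26, adjusted p = 0.485 and 0.452). The untreated MEKK1-/- arrays were tightly grouped, at 14.96, 14.86, 15.00 and 14.91, and with CM they spread to 15.20, 13.67, 14.72 and 14.35. Replicate 1 with CM was again the highest and replicate 2 the lowest, and the MEKK1-/- difference was -0.67 (adjusted p = 0.203) without the MEKK1-/- arrays numbered 1 and -0.21 (adjusted p = 0.759) without all arrays numbered 2. Without the CM array of replicate 1 or of replicate 2 alone it was -0.69 and -0.18. CTGF lay near the top of the scale of the arrays, with 1 to 175 genes brighter on an array. On untreated MEKK1+/+ replicate 1 its deposited intensity was 50132, beside an array maximum of 50289, and whether the signal was compressed there could not be measured.

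THBS1, the gene for thrombospondin-1, which can release TGF-beta from its latent form, was lower by 0.41 in its log2 mean in MEKK1+/+ (SE 0.29, limma adjusted p = 0.565) and by 0.42 in MEKK1-/- cells (SE 0.29, adjusted p = 0.558). In MEKK1-/- cells it read 8.91, 8.82, 9.18 and 8.87 untreated and 8.35, 8.59, 8.68 and 8.48 with CM, without overlap (exact permutation p = 0.0286). In MEKK1+/+ cells the levels were 9.48, 8.90, 8.94 and 9.06 untreated and 8.91, 7.46, 9.03 and 9.34 with CM, which overlapped, with replicate 2 alone far below the others. Without that array the MEKK1+/+ difference was 0 (adjusted p = 1), and without all arrays numbered 2 it was -0.066 (adjusted p = 0.928), so it rested on 1 array. The test over all genes used 1 spread for both genotypes, and without the low array the MEKK1-/- difference of -0.42 had an adjusted p of 0.0901.

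**Figure D3:**
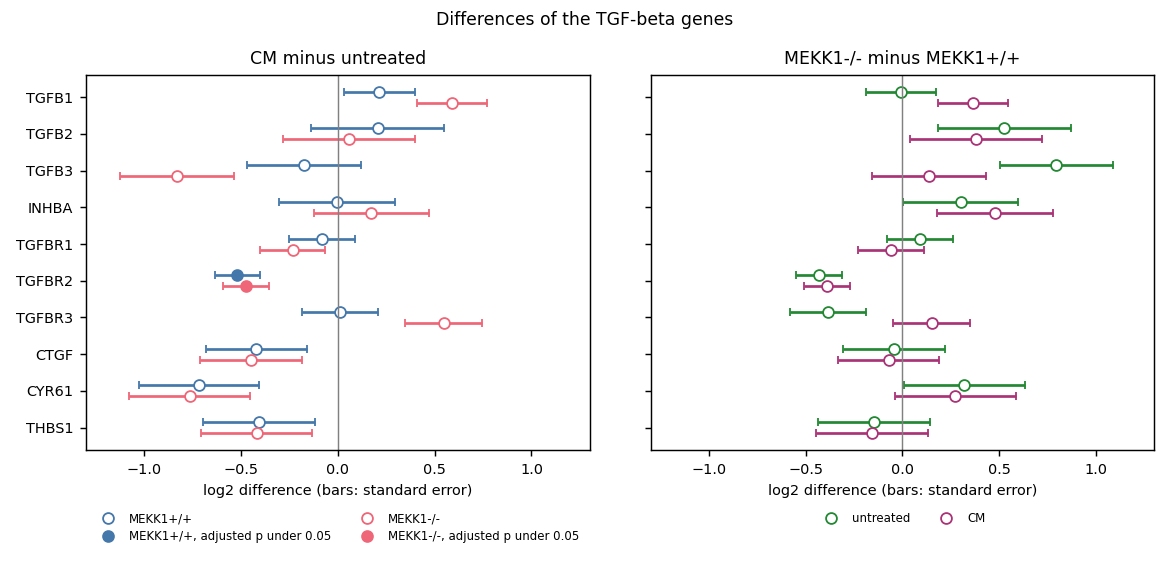
Log2 differences (horizontal axes, points) with their standard errors (bars) of the 10 TGF-beta genes, for CM against untreated in each genotype and for MEKK1-/- against MEKK1+/+ cells in each medium; filled points passed the test. TGFBR2 lies left of 0 in all 4 comparisons, from -0.39 to -0.52, and is the one gene of the 10 past the test, with CM in both genotypes.

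Between genotypes none of the 10 genes passed limma's test, either untreated, where 0 of all 18132 genes (0%) were called, or with CM, where 1 gene (0.00552%) was. At an unadjusted p under 0.05 these comparisons held 1680 genes (9.27%) and 1466 genes (8.09%), and 2 and 1 of the 10. TGFBR2 was lower in MEKK1-/- cells by 0.43 on the log2 scale untreated (SE 0.12, adjusted p = 0.466) and by 0.39 with CM (SE 0.12, adjusted p = 0.501). It was the one gene of the 10 whose genotypes did not overlap, in each medium (exact permutation p = 0.0286), beside 4.61% of all genes untreated and 4.17% with CM. With 1 array at a time left out, its difference ran from -0.50 to -0.38 untreated and from -0.47 to -0.29 with CM. Most MEKK1-/- arrays had lower macrophage and higher epithelial markers than most MEKK1+/+ arrays. The part of those cells in the TGFBR2 difference was not tested. Tested as z-scores against the normal distribution, as the study's methods name it, TGFBR2 was called between untreated genotypes (adjusted p = 0.0138), 1 of the 10 beside 4.51% of all genes. That test ignores the uncertainty of an SD from 4 arrays, and it called 817 genes where limma called 0. The genotype and CM comparisons share arrays, so the differences of TGFBR2 are not independent of each other.

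TGFB3 was higher in untreated MEKK1-/- cells by 0.79 (SE 0.29, limma adjusted p = 0.498) and by 0.14 with CM (adjusted p = 0.918). Untreated TGFBR3 was lower in MEKK1-/- cells by 0.38 (SE 0.20, adjusted p = 0.563), and with CM it differed by 0.15 (adjusted p = 0.856). The values of both depended on the arrays that stood apart. Without all arrays numbered 2, TGFB3 was 1.25 higher (adjusted p = 0.0169) and TGFBR3 0.64 lower (difference -0.64, adjusted p = 0.0383) in untreated MEKK1-/- cells, and 383 genes (2.11%) were called. Without the MEKK1-/- arrays numbered 1, the TGFB3 difference was 0.46 (adjusted p = 0.708). The other genes differed between untreated genotypes by -0.15 to 0.53, and with CM they differed by -0.16 to 0.48, with adjusted p of 0.626 or more.

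The effect of CM itself was compared between genotypes by the interaction term. It was 0.043 (SE 0.17) for TGFBR2, so the decreases of -0.52 and -0.47 were not shown to differ. The largest interaction terms of the 10 genes were -0.66 (SE 0.41) for TGFB3, 0.53 (SE 0.28) for TGFBR3 and 0.37 (SE 0.26) for TGFB1. No gene of the 10 and none of all 18132 genes passed limma's test for it, with 473 genes (2.61%) and 0 of the 10 at an unadjusted p under 0.05.

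The wider pathway was read from 61 further genes in 7 lists, of which 51 were measured, and 32 of these lay above the olfactory level on all arrays. With CM 2 rose and 6 fell in each genotype, beside 2.27% of all genes that rose and 2.75% that fell in MEKK1+/+ and 2.18% and 2.51% in MEKK1-/- cells. The median log2 difference of the 51 was -0.033 in MEKK1+/+ and -0.036 in MEKK1-/- cells. With only genes above the olfactory level, 9 of 37 pathway genes were called in MEKK1+/+ and 10 of 37 in MEKK1-/- cells. The same setting called 1041 and 982 of 8094 genes. None of the 51 passed limma's test between genotypes in either medium or for the interaction.

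Of 8 measured SMADs and SMAD regulators, SMAD2 fell in both genotypes, by 0.51 and 0.53 on the log2 scale (limma adjusted p = 0.00246 and 0.00162). SMAD3, which TGFBR1 phosphorylates as well, did not fall. It differed by 0.061 in MEKK1+/+ and 0.16 in MEKK1-/- cells (adjusted p = 0.873 and 0.519). TGIF1, a SMAD co-repressor, rose by 0.32 in MEKK1+/+ cells (adjusted p = 0.0348; MEKK1-/- difference 0.27, adjusted p = 0.0780), and not without all arrays numbered 2 (adjusted p = 0.222). SMURF1, a ubiquitin ligase that acts on the receptors and SMADs, rose by 0.44 in MEKK1-/- cells (adjusted p = 0.0163; MEKK1+/+ difference 0.34, adjusted p = 0.0584). It did not pass without the MEKK1-/- arrays numbered 1 (adjusted p = 0.0637) or without all arrays numbered 2 (adjusted p = 0.0578). Of 6 other receptors, ACVRL1, a type I receptor known from endothelium, rose by 0.51 and 0.72 (adjusted p = 0.0471 and 0.00772), and without all arrays numbered 2 the MEKK1+/+ call was lost (adjusted p = 0.197). Its level was low, with untreated MEKK1+/+ arrays at 6.97 to 7.28, and the summed level of 6 endothelial markers was 9.54 to 9.87 on MEKK1+/+ and 9.75 to 10.39 on MEKK1-/- arrays. None of the 8 latency and activation genes and none of the 4 other activin subunits and ligand traps passed the test in either genotype.

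Of 11 other TGF-beta targets, 2 fell in both genotypes and none rose. PMEPA1, a target that feeds back on SMAD signaling, fell from 8.26 ± 0.15 to 7.48 ± 0.16 in MEKK1+/+ and from 8.33 ± 0.19 to 7.53 ± 0.06 in MEKK1-/- cells (SD, n = 4), with limma adjusted p of 0.000495 and 0.000455. TGFB1I1 (Hic-5), a focal adhesion protein induced by TGF-beta, fell by 0.90 and 0.81 on the log2 scale (adjusted p = 0.000434 and 0.000916). Of 5 other CCN and thrombospondin genes, WISP2 fell by 1.14 in MEKK1+/+ and 1.31 in MEKK1-/- cells (adjusted p = 0.0136 and 0.00575), and without all arrays numbered 2 the MEKK1-/- fall had an adjusted p of 0.0577. WISP1, another CCN gene, fell by 0.85 in MEKK1+/+ cells (adjusted p = 0.0226; MEKK1-/- difference -0.67, adjusted p = 0.0771), and without the MEKK1-/- arrays numbered 1 it also fell in MEKK1-/- cells (-0.91, adjusted p = 0.0255).

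Of 9 YAP/TEAD and SRF targets, SRF, the serum response factor that activates cytoskeletal genes and its own promoter, fell in both genotypes. Its log2 mean went from 9.77 ± 0.25 to 8.78 ± 0.23 in MEKK1+/+ and from 10.20 ± 0.29 to 9.12 ± 0.35 in MEKK1-/- cells (limma adjusted p = 0.00573 and 0.00313). AMOTL2, a YAP-binding protein, fell by 0.60 in MEKK1-/- cells (adjusted p = 0.0487; MEKK1+/+ difference -0.44, adjusted p = 0.155), a call that was lost without the MEKK1-/- arrays numbered 1 (-0.54, adjusted p = 0.154). The 250 bases before the start site of Srf (chr17:46556163-46556412, minus strand, GRCm38.p6) are given because SRF had the largest fall of its list, with CCAAT boxes, CArG boxes and a TATA box in capitals.

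Srf promoter: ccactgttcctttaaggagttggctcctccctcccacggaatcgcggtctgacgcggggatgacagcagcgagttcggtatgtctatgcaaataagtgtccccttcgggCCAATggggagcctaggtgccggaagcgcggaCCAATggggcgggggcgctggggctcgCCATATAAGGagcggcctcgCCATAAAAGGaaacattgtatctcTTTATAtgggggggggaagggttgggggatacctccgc

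The CArG boxes, the motif that SRF binds, lay at bases -82 to -73 and -62 to -53, and a CArG box occurred in 1.40% of the 27025 promoters. None of the promoters found for 6 of the 10 genes held one. The CCAAT boxes of Srf lay at -141 to -137 and -109 to -105, the TATA letters on the opposite strand lay at -38 to -33, and none of the marked motifs overlapped.

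**Figure D4:**
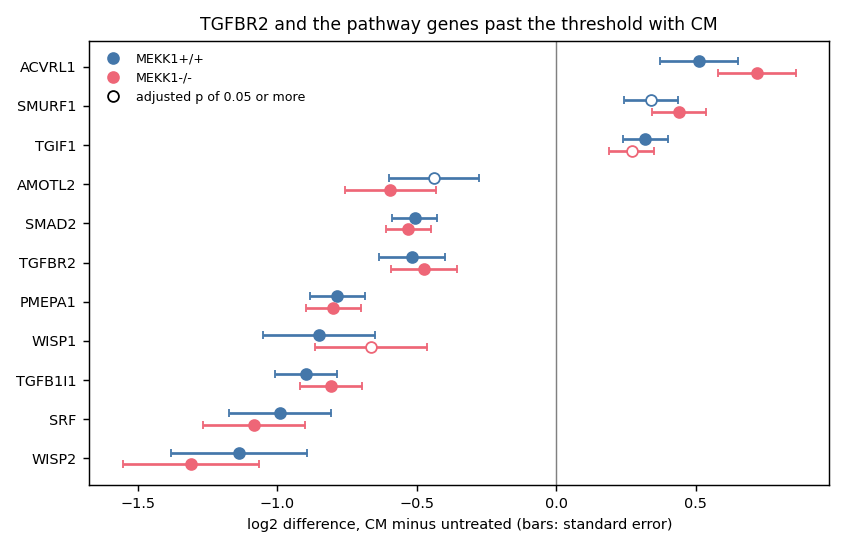
Log2 difference of CM minus untreated (horizontal axis, points) with its standard error (bars) in MEKK1+/+ and MEKK1-/- cells, for TGFBR2 and the 10 genes of the wider pathway that passed the test in at least 1 genotype. ACVRL1, TGIF1 and SMURF1 lie right of 0 and TGFBR2 and the other 7 genes left of it in both genotypes, with WISP2 the farthest left (-1.14 and -1.31).

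The direction of these pathway differences held under every alternative tried, apart from TGIF1 in MEKK1+/+ cells, which kept it in 27 of 28. The calls nearest to the threshold changed most often: ACVRL1 passed in 13 of 28 and TGIF1 in 14 of 28 settings in MEKK1+/+ cells, and AMOTL2 in 12 of 29 in MEKK1-/- cells. PMEPA1, TGFB1I1, SMAD2, SRF and WISP2 passed in all 28 in MEKK1+/+ and in 27 or 28 of 29 in MEKK1-/- cells. With the values as deposited no pathway gene was called in MEKK1-/- cells, beside 45 of all 18132 genes. With the block within genotype 14 were called in MEKK1+/+ and 13 in MEKK1-/- cells. That setting also called more of all genes, 8.17% in MEKK1+/+ and 7.93% in MEKK1-/- cells.

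The genes whose log2 levels followed TGFBR2 most closely over the 16 arrays, among 6913 genes above the olfactory level on every array, were PEX2 (Pearson r = 0.91), VEZF1 (r = 0.89) and RERG (r = 0.88). PEX2 encodes a peroxisome assembly protein, VEZF1 a zinc finger transcription factor and RERG a small GTPase. With CM they differed by -0.46, -0.49 and -0.56 in MEKK1+/+ and by -0.40, -0.51 and -0.31 in MEKK1-/- cells. The 16 arrays include the 4 groups, so these correlations contain the shared difference between media and any shared difference between genotypes.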

How the data were processed

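Total RNA of 16 cultures was hybridized to Illumina Mouse 8 arrays. The authors deposited 1 intensity per gene and array on a linear scale, which a core facility had normalized by a method not given in the sources used here. Intensities before that step were not used here, and depth does not apply, so the precision rests on 4 arrays a group. Array medians of the deposited intensities ran from 113.8 to 170.1. Values were taken to log2, quantile normalized and fitted with limma 3.58.1 (R 4.3.3) as 4 group means over all 16 arrays, with Benjamini-Hochberg adjustment over 18132 genes and a threshold of 0.05. Array correlations within groups were 0.979 to 0.996. The scripts were tested on simulated data. Single values were compared by 2-sided exact permutation tests.

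The 10 genes, pathway lists and marker lists (fibroblast, macrophage, epithelial, endothelial, fat cell, lymphocyte, smooth muscle and pericyte) were chosen with earlier results of these data known. Named were the 10 genes, pathway genes past the threshold with CM (at most 4 a list) or between genotypes, and SMAD3 beside SMAD2. For a called gene of the 10, the 3 genes most correlated with it were named too. Of the 61 pathway genes 10 had no row under a symbol searched. No fat cell marker passed the olfactory level on every array of a group, no lymphocyte marker did, and 3 of 6 smooth muscle and pericyte markers did in every group. Labels gave groups the same replicate numbers. Deviations from the group means correlated between same-numbered arrays at 0.51, 0.40, 0.22 and 0.25 in MEKK1-/- cells. These met a limit of 0.1 for every pair, and numbers were taken as possible pairs there. Untreated replicates 3 and 4 still correlated best with CM arrays of other numbers, so the pairing is uncertain. In MEKK1+/+ cells the values were -0.038, 0.48, 0.12 and 0.58, which did not meet that limit for every pair. There untreated replicates 2, 3 and 4 correlated best with the CM array of their own number, and replicate 1 did not. By best match, MEKK1-/- cells were thus not the better paired genotype. Between genotypes the numbers did not pair. The blocked fit is an alternative.

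Alternatives were the deposited values, median scaling, z-scores with limma or the normal test of the methods, 16 added to each intensity, a filter at the olfactory level, limma with trend and robust settings, array weights, only the groups compared, the replicate blocks and each array left out. Leaving out the MEKK1-/- arrays numbered 1, and all arrays numbered 2, was chosen after seeing the data.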

Additional observations from a re-analysis of the deposited data

Results flagged for a closer look

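In each of the 40 groups of 4 arrays (10 genes in 4 groups) the array farthest from the others was compared with Dixon's critical value. Chance passes that value in about 1 of 20 groups. Of the 40 groups, 2 arrays passed, about as many as that rate gives by chance. TGFB1 on untreated MEKK1-/- replicate 1 read 10.81, against 9.86 to 10.00 on the other 3 arrays of its group. CYR61 on MEKK1-/- replicate 1 with CM read 11.62, against 10.03 to 10.08 on the other 3. The summed epithelial markers on these arrays were 13.45 and 13.29, the highest of the 16, and their part in both values was not tested.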

How the results depend on the processing

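Of the 50 differences (10 genes in 4 comparisons and the interaction), 26 had the same direction in every setting, among them TGFBR2 in all 4 comparisons, CTGF and CYR61 with CM in both genotypes, and TGFB1, TGFB3, TGFBR3 and THBS1 with CM in MEKK1-/- cells. THBS1 with CM in MEKK1+/+ cells was 0 without the CM array of replicate 2. The signs that turned belong to differences that did not pass the test. The cause of these changes was not tested. Only results that moved are given, and values from z-scores are in units of the SD of an array. With the values as deposited, the test called 45 genes with CM in MEKK1-/-, 0 pathway genes with CM in MEKK1-/-, 0 of the 10 with CM in MEKK1-/-. There the sign turned for TGFB1 -0.19, TGFB2 -0.18 and TGFBR3 -0.43 with CM in MEKK1+/+, TGFBR1 -0.16 between untreated genotypes, TGFBR1 0.060, CTGF 0.0098 and THBS1 0.012 between genotypes with CM, TGFB2 0.22, TGFBR1 0.22, CTGF 0.15, CYR61 0.30 and THBS1 0.37 for the interaction. With median scaling, the test called 463 genes with CM in MEKK1-/- and 7 between genotypes with CM, 0 of the 10 with CM in MEKK1-/-. There the sign turned for TGFBR3 -0.14 with CM in MEKK1+/+, TGFBR1 -0.18 between untreated genotypes, TGFB3 -0.062 and TGFBR3 -0.092 between genotypes with CM, CYR61 0.0077 and THBS1 0.077 for the interaction. With z-scores, the sign turned for INHBA 0.055 and TGFBR3 -0.017 with CM in MEKK1+/+, CTGF 0.23 between untreated genotypes, CTGF 0.054 between genotypes with CM, TGFBR2 -0.013 and THBS1 0.012 for the interaction. With z-scores tested against the normal distribution, the test called 1916 genes with CM in MEKK1+/+, 2047 with CM in MEKK1-/-, 817 between untreated genotypes, 460 between genotypes with CM and 20 for the interaction, 3 pathway genes between untreated genotypes and 1 between genotypes with CM, 2 of the 10 with CM in MEKK1+/+ (TGFBR2 and CYR61), 2 of the 10 with CM in MEKK1-/- (TGFBR2 and THBS1) and 1 of the 10 between untreated genotypes (TGFBR2). With only genes above the olfactory level, the test called 2 of the 10 with CM in MEKK1-/- (TGFB1 and TGFBR2), beside 982 of 8094 genes. With only the groups compared in the fit, the test called 588 genes with CM in MEKK1+/+ and 0 between genotypes with CM, 0 of the 10 with CM in MEKK1+/+ and 2 of the 10 with CM in MEKK1-/- (TGFBR2 and THBS1), beside 838 genes there. There the sign turned for INHBA 0.0035 with CM in MEKK1+/+. With array weights, the test called 1355 genes with CM in MEKK1-/- and 1 between untreated genotypes, 2 of the 10 with CM in MEKK1-/- (TGFB1 and TGFBR2). There the sign turned for INHBA 0.12 and TGFBR3 -0.019 with CM in MEKK1+/+. With the replicate block over all arrays, the test called 2 of the 10 with CM in MEKK1-/- (TGFB1 and TGFBR2), beside 835 of 18132 genes. With the replicate block within genotype, the test called 1481 genes with CM in MEKK1+/+ and 1438 with CM in MEKK1-/-, 14 pathway genes with CM in MEKK1+/+ and 13 with CM in MEKK1-/-, 2 of the 10 with CM in MEKK1+/+ (TGFBR2 and CYR61) and 4 of the 10 with CM in MEKK1-/- (TGFB1, TGFBR2, TGFBR3 and CYR61). Without the MEKK1-/- arrays numbered 1, the test called 1 genes between untreated genotypes and 2 between genotypes with CM, 1 pathway genes between genotypes with CM, 2 of the 10 with CM in MEKK1-/- (TGFB1 and CYR61, beside 768 genes). There the sign turned for INHBA -0.017 with CM in MEKK1-/-, CYR61 -0.12 between genotypes with CM, TGFB2 0.060, INHBA -0.013 and THBS1 0.036 for the interaction. Without all arrays numbered 2, the test called 458 genes with CM in MEKK1+/+, 383 between untreated genotypes, 120 between genotypes with CM and 2 for the interaction, 0 of the 10 with CM in MEKK1+/+, 2 of the 10 with CM in MEKK1-/- (TGFB3 and TGFBR3, beside 654 genes) and 2 of the 10 between untreated genotypes (TGFB3 and TGFBR3). There the sign turned for INHBA 0.084 with CM in MEKK1+/+, TGFB2 -0.11 with CM in MEKK1-/-, TGFB1 0.065 between untreated genotypes, TGFBR1 0.12, TGFBR3 -0.10 and CTGF 0.038 between genotypes with CM, TGFBR1 0.017, TGFBR2 -0.0080, CTGF 0.13 and CYR61 0.24 for the interaction. With 1 array at a time left out, the sign turned for INHBA (-0.10 to 0.13), TGFBR1 (-0.17 to 0.023) and TGFBR3 (-0.079 to 0.12) with CM in MEKK1+/+, TGFB2 (-0.28 to 0.35) and INHBA (-0.16 to 0.43) with CM in MEKK1-/-, TGFB1 (-0.23 to 0.086) and CTGF (-0.16 to 0.11) between untreated genotypes, TGFBR1 (-0.19 to 0.11), CTGF (-0.31 to 0.20), CYR61 (-0.12 to 0.41) and THBS1 (-0.56 to 0.062) between genotypes with CM, TGFB2 (-0.48 to 0.15), INHBA (-0.15 to 0.44), TGFBR1 (-0.28 to 0.015), TGFBR2 (-0.040 to 0.14), CTGF (-0.26 to 0.24), CYR61 (-0.44 to 0.095) and THBS1 (-0.42 to 0.21) for the interaction. Over these settings the test called 477 to 1027 genes with CM in MEKK1-/-, 506 to 1007 with CM in MEKK1+/+, 0 to 1 for the interaction, 0 to 1 between untreated genotypes and 0 to 2 between genotypes with CM, 0 to 2 of the 10 with CM in MEKK1-/- and 0 to 2 with CM in MEKK1+/+, 6 to 9 pathway genes with CM in MEKK1-/-, 5 to 10 with CM in MEKK1+/+ and 0 to 1 between genotypes with CM. The fewest genes with CM, 477 and 506, were called without untreated MEKK1-/- replicate 3 and without untreated MEKK1+/+ replicate 3. The number of arrays, 4 a group, limits the precision.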
